A study of Mus musculus with 6 samples.

Results

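The miR-10 and miR-196 families are microRNAs (miRNAs) whose genes sit inside the Hox clusters, the chromosomal blocks of homeobox genes that pattern the body axis. The array carried 4 of their guide strands, listed as mmu-miR-10a, mmu-miR-10b, mmu-miR-196a and mmu-miR-196b, out of 611 mouse miRNAs. They were chosen by name, with no measured value in the rule, but with earlier results of these data, their signals and detection included, already known. Levels and detection are therefore given as a description. Total RNA came from bone-marrow-derived macrophages (BMDMs) of female C57BL/6 mice, all stimulated for 24 h with LPS (lipopolysaccharide, a bacterial cell-wall product that activates them). The 3 knockout samples came from MxCre-RBP-Jf/f mice, in which both floxed alleles of RBP-J can be deleted. The 3 control samples came from MxCre-RBP-Jf/+ mice, which carry the same Cre and 1 floxed allele and which the sample titles call WT. Mice of both genotypes had received poly(I)-poly(C), which induces the interferon-responsive Mx promoter that drives Cre, so deletion is not limited to macrophages. The array measures no RBP-J mRNA, and the deletion itself was not checked here. RBP-J is the DNA-binding partner of activated Notch receptors, and the study looked for miRNAs that act downstream of it when macrophages polarize.

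A miRNA guides a silencing complex to mRNAs that pair with its seed, bases 2 to 8 from the 5′ end. Hox-embedded miRNAs are often transcribed together with their neighbouring Hox genes and target Hox mRNAs, among others. In blood formation miR-196b and miR-10a are best known from progenitor cells and leukaemias with active Hox genes, and miR-10a and miR-10b are also abundant in vascular and connective tissue. The mature sequences below are shown because each family is a pair that shares its seed (capitals) and differs at a central base, which bears on what a hybridisation probe can tell apart.
miR-10a: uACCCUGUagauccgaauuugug
miR-10b: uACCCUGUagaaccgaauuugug
miR-196a: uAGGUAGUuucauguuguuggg
miR-196b: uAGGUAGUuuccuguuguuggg

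Counted from the 5′ end, miR-10a and miR-10b differ at 1 of 23 bases, by U12A, and miR-196a and miR-196b at 1 of 22 bases, by A12C. Among 1679 mature mouse sequences of the RefSeq table (GRCm38.p6), each of these seeds occurred in 2, so each pair is alone with its seed. The sequences were matched through the current names, in which these guide strands end in -5p, for all 4 members. The miR-10 seed stands close to those of miR-99, miR-100 and miR-125, which belong to the same superfamily, and the miR-196 seed occurs in let-7 shifted by a base. The relatives below are shown for that offset, again with the seed in capitals.
miR-100: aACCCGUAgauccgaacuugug
miR-99b: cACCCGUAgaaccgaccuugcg
miR-125a-5p: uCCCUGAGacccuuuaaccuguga
let-7a: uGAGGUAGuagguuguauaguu

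The longest stretch that miR-10a shares with miR-100 has 11 bases, starting at base 7 of miR-10a and at base 6 of miR-100. The 7 seed bases of miR-196a are bases 3 to 9 of let-7a.

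The genes of the members lie in all 4 Hox clusters in the RefSeq annotation of GRCm38.p6. Mir10a, at chr11:96317165-96317274 on the plus strand, lies within the annotated span of Hoxb3 between Hoxb5 and Hoxb4. Mir10b, at chr2:74726070-74726137 on the plus strand, lies within the spans of Hoxd3 and Hoxd4. The mature miR-196a comes from 2 genes, Mir196a-1 at chr11:96265164-96265265 between Hoxb13 and Hoxb9 and Mir196a-2 at chr15:102973350-102973434 between Hoxc10 and Hoxc9, both on the plus strand. Mir196b, at chr6:52230081-52230165 on the minus strand, lies between Hoxa9 and Hoxa10. The hairpin of Mir10a is shown because miR-10a gave the signal described next, with the mature guide strand in capitals at bases 22 to 44.
Mir10a: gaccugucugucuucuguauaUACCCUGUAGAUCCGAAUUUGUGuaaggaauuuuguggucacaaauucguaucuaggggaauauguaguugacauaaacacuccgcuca

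The 6 samples were read on 6 Cy3 arrays of 1 slide. Between 127 and 141 miRNAs per array were well above background, meaning that at least 50% of the spots of a probe carried the scanner's flag for it. The summed signal of all mouse miRNAs was 62821 to 77324 intensity units on the control arrays and 45120 to 57792 on the knockout arrays, so the groups did not overlap in brightness. Nothing in the labels says that replicates are separate mice or cultures, and p-values then measure only the spread between these samples, which may be technical. All 6 myeloid markers (miR-223, miR-142-3p, miR-142-5p, miR-155, miR-146a and miR-21) were well above background on all 6 arrays. None of the 5 stromal (miR-143, miR-145, miR-199a-3p, miR-199a-5p, miR-214), 2 endothelial (miR-126-3p, miR-126-5p), 3 erythroid or platelet, 7 epithelial or 4 muscle markers was well above background on any array. The software's own gene-level call, a looser rule, detected 1 of these markers once: miR-199a-3p on control replicate 1, with a total of 8.84 units, against -0.74 to 0.34 on the other arrays. The summed totals of the stromal markers were -4.95 to 11.03 units on control and -9.60 to -6.47 on knockout arrays. Control replicate 1 also had the highest unscaled miR-10a, described next, and the part of stromal RNA in that signal was not tested. Of the 2 lymphoid markers miR-150 was on none, while miR-181b, which other blood cells also express, was on all 6. Of the 5 progenitor markers miR-125b-5p was on all 6 arrays, miR-99a on 2 control arrays and the other 3 on none. The members miR-10a and miR-10b also stood on the stromal list and miR-196b on the progenitor list. As members they were left out of these counts and sums.

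Of the 4 Hox-cluster members only miR-10a was detected, on 6 of 6 arrays, while miR-10b, miR-196a and miR-196b were on 0 of 6. Its 2 probes had 57 unflagged spots each over the arrays, and all 57 of each were well above background. The software's own total intensity for miR-10a, summed over its probes, was 100.3, 59.4 and 65.3 units in control replicates 1, 2 and 3. In knockout replicates 1, 2 and 3 it was 86.8, 65.3 and 77.5 units. Control replicate 1 was the brightest and control replicate 2 the dimmest of the 6, so the knockout values fell inside the range of the controls. Control macrophages averaged 74.99 ± 22.1 units (SD, n = 3), and knockout macrophages 76.5 ± 10.8 units (SD, n = 3). The total was 11.8 to 12.4 times the software's error estimate on every array.

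miR-10b, the HoxD paralogue, stayed below the detection flag, yet its 2 probes behaved differently. The brighter probe read 7.68, 5.51 and 8.21 units in control replicates 1, 2 and 3 and 6.499, 5.09 and 5.69 units in the knockout replicates. On every array this was above all 7 negative-control probes, whose highest medians ran from 1.03 to 5.17 units. It was also below the lowest probe called well above background, at 9.67 to 12.9 units, on all 6 arrays. Of its 56 unflagged spots 54 were positive and significant by the scanner's test, and 0 were well above background. The other miR-10b probe read -0.73 to 1.83 units, and 9 of its 58 spots were positive and significant. The gene-level total of miR-10b was 2.66 to 5.44 units, or 1.26 to 2.19 times its error, and the software called it detected on 0 arrays. The probe sequences are not used here, and how much of this weak signal came from miR-10a, which differs from miR-10b by U12A, was not tested. With both groups below the flag no fold is given for miR-10b.

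The miR-196 family, known for repressing Hoxb8 by near-complete pairing, gave no signal that stood above background. The 4 miR-196a probes read -4.56 to 0.53 units and the 2 miR-196b probes -3.03 to 0.19 units. A negative value means that a spot read below the background that the software subtracted. On no array was any of these 6 probes above the median of the negative-control probes. The gene-level total was negative on all 6 arrays for both miRNAs, at -3.60 to -0.97 units for miR-196a and -2.76 to -0.34 for miR-196b. In the authors' deposited matrix of log2 values, miR-196a and miR-196b shared 1 value per array, between 0 and 0.03, whereas miR-10b stood at 1.62 to 2.34. All 9 miRNAs of the let-7 family, let-7a among them, were well above background on the same 6 arrays. A level of miR-196a or miR-196b under the flag's limit could not have been detected.

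**Figure D1:**
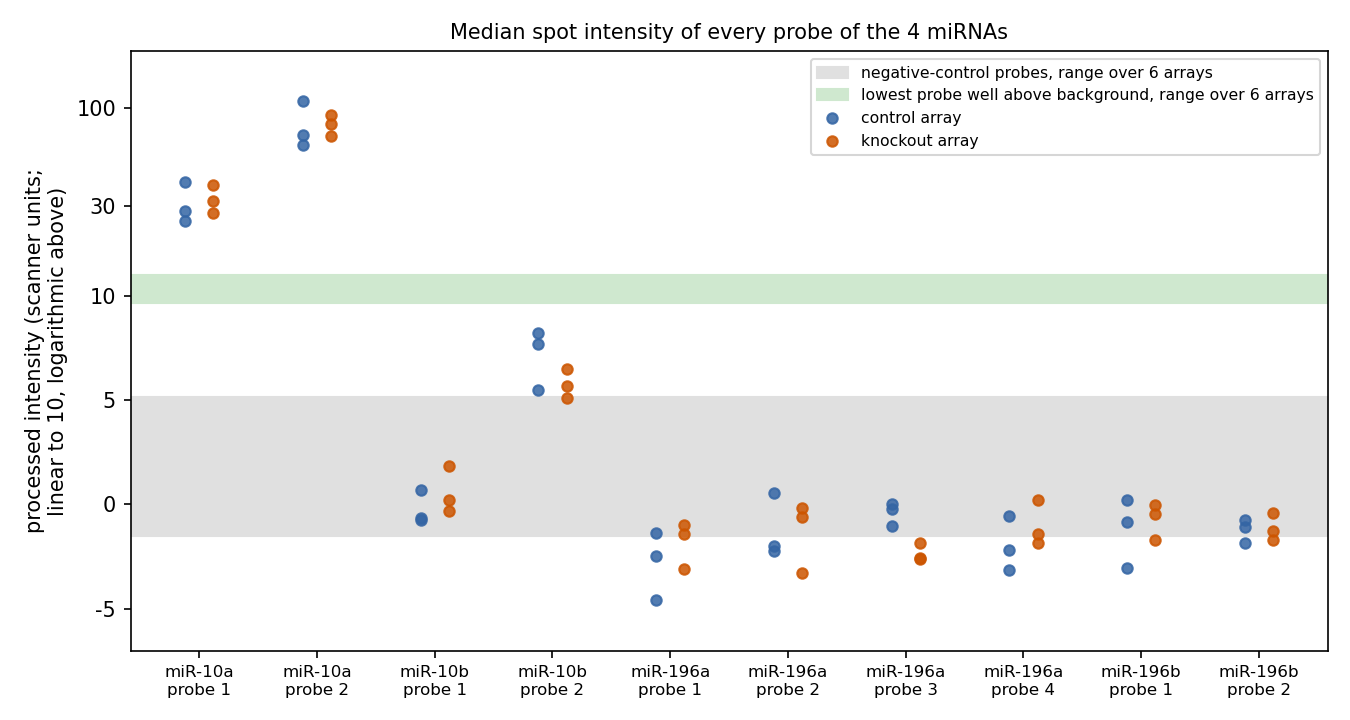
Median processed intensity of the 10 probes of the 4 miRNAs on each array (scanner units, linear to 10 and logarithmic above), with the range of the 7 negative-control probes in grey and of the lowest detected probe in green. Both miR-10a probes lie above the green band on all arrays, the second miR-10b probe lies under the green band and near or above the top of the grey band (bands are pooled over arrays), and the miR-196 probes lie in or under the grey band.

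The opposite arms and the other Hox miRNA on the array were likewise not detected. Of 5 such miRNAs, miR-10a*, miR-10b*, miR-196a*, miR-615-3p and miR-615-5p, 0 were well above background on any array. The passenger strand miR-10a*, from the same hairpin as miR-10a, had a total of -3.88 to -1.68 units. miR-10b* lay at -4.05 to -2.92 units and miR-196a* at -2.94 to -1.50. Mir615, which lies within Hoxc5, gave totals of -0.76 to 1.06 units for its 3p arm and -2.86 to 0.48 for its 5p arm, the highest of these being under the software's error.

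For the comparison of genotypes the intensity of each probe was divided by a reference of its own array, the 75th percentile of 200 probes detected on all arrays, and given as log2. The brighter probe of miR-10a then stood at -1.40, -1.94 and -2.29 in control replicates 1, 2 and 3. In knockout replicates 1, 2 and 3 it stood at -1.30, -1.39 and -1.46. The knockout arrays lay close together near the top of the range. Control replicate 1 fell among them, so the groups overlapped on this probe, though not on the dimmer one. For comparison, the groups did not overlap for 10.4% of the 134 miRNAs tested, each taken by its probe with the highest mean.

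On this scaled log2 scale miR-10a averaged -1.87 ± 0.45 in control (SD, n = 3) and -1.38 ± 0.08 in knockout (SD, n = 3). The knockout minus control difference was 0.49 (SE 0.23, 95% interval -0.04 to 1.02), a 1.40-fold signal with an interval of 0.97 to 2.03. It did not pass limma's test across 134 miRNAs (unadjusted p = 0.0662, adjusted p = 0.634 by Benjamini-Hochberg). On the brighter probe, values were higher on 2 of 3 knockout arrays than on any control array. Of the members 1 was tested and 0 passed, where 0 of all 134 tested miRNAs (0%) passed in either direction. At an unadjusted p under 0.05 limma found 6 miRNAs (4.48%), and miR-10a was not among them, ranking at position 11. In other fits miR-10a did fall under an unadjusted 0.05 without passing after adjustment. With the slide column as a covariate limma gave adjusted p = 0.578 (unadjusted 0.047). With normexp background correction, which added an offset of 50 units, limma gave adjusted p = 0.216 (unadjusted 0.023). Without control replicate 1 limma gave adjusted p = 0.415 (unadjusted 0.0039).

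The size of the difference rested on the scaling. The reference percentile was 287.8, 242.6 and 352.3 units in control replicates 1, 2 and 3 and 227.1, 186.3 and 225.7 in the knockout replicates. All knockout references were thus below every control reference. The brighter miR-10a probe itself read 109.3, 63.3 and 72.2 units in control and 92.0, 71.1 and 82.0 in knockout replicates 1, 2 and 3. Without scaling between arrays the difference was 0.03 (SE 0.24, limma adjusted p = 0.958). The median tested miRNA stood at 0.12 as scaled and at -0.31 without scaling, so that miR-10a lay 0.37 and 0.34 above the median miRNA in the respective fits. With the 75th percentile taken over all probes the difference was 0.32 (limma adjusted p = 0.943). Division by the lower knockout references is, by arithmetic, the step from 0.03 without scaling to 0.49 as scaled. Why the knockout arrays were less bright was not tested.

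**Figure D2:**
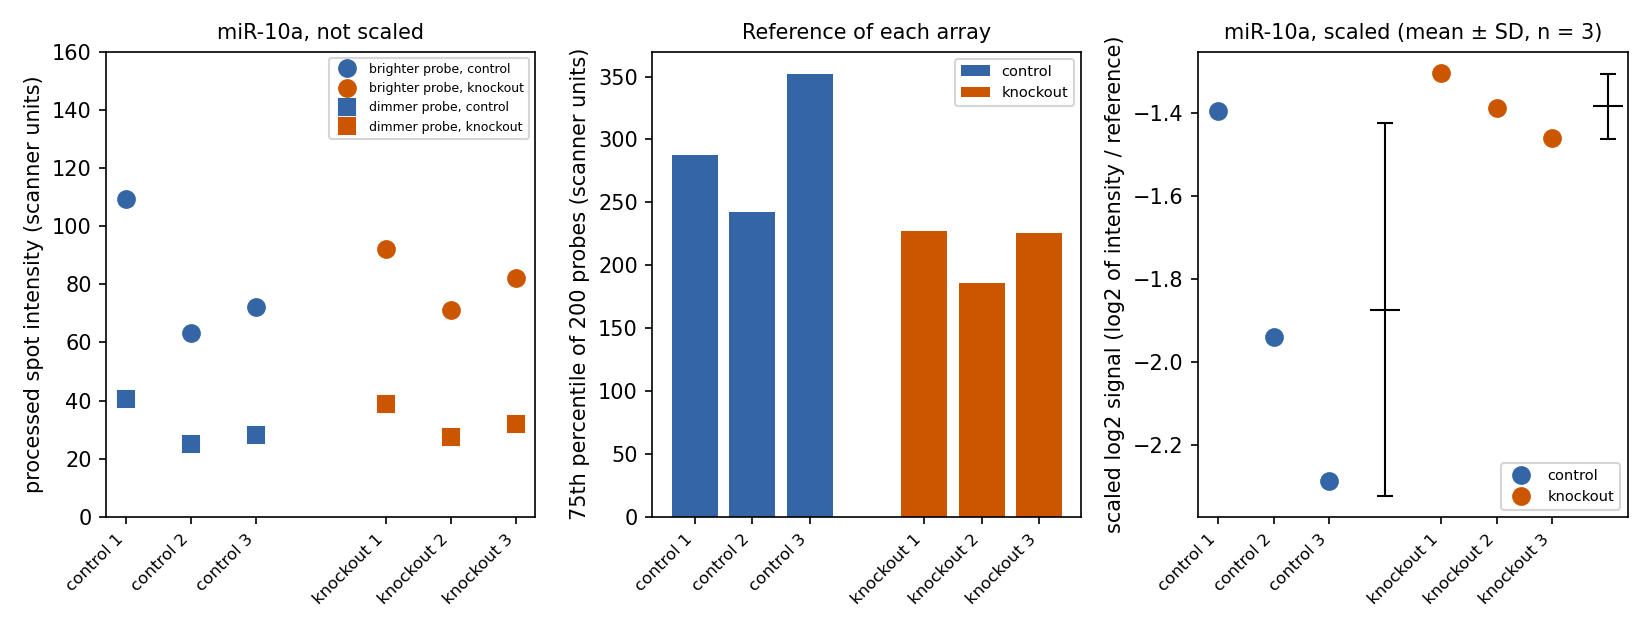
Left, processed intensity of the 2 miR-10a probes on each array. Middle, the reference percentile of each array, lower on all knockout arrays. Right, scaled log2 signal of the brighter probe with the group mean ± SD (n = 3): miR-10a intensities overlap between genotypes before scaling, and control replicate 1 still lies among the knockout arrays after it.

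Single control arrays also carried weight. Without control replicate 3, the lowest array, the difference was 0.28 (limma adjusted p = 0.719), and without control replicate 1 it was 0.73 (limma adjusted p = 0.415). Replicates 1 and 2 lay in the first column of the slide and replicate 3 in the second. Within column 1 the difference was 0.32 over 4 arrays, and in column 2 it was 0.83 between 1 control and 1 knockout array. In all 20 fits the difference was above 0, and it passed the test in none. Several of these fits use the same miR-10a values and repeat the same difference, so they add nothing on its sign.

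**Figure D3:**
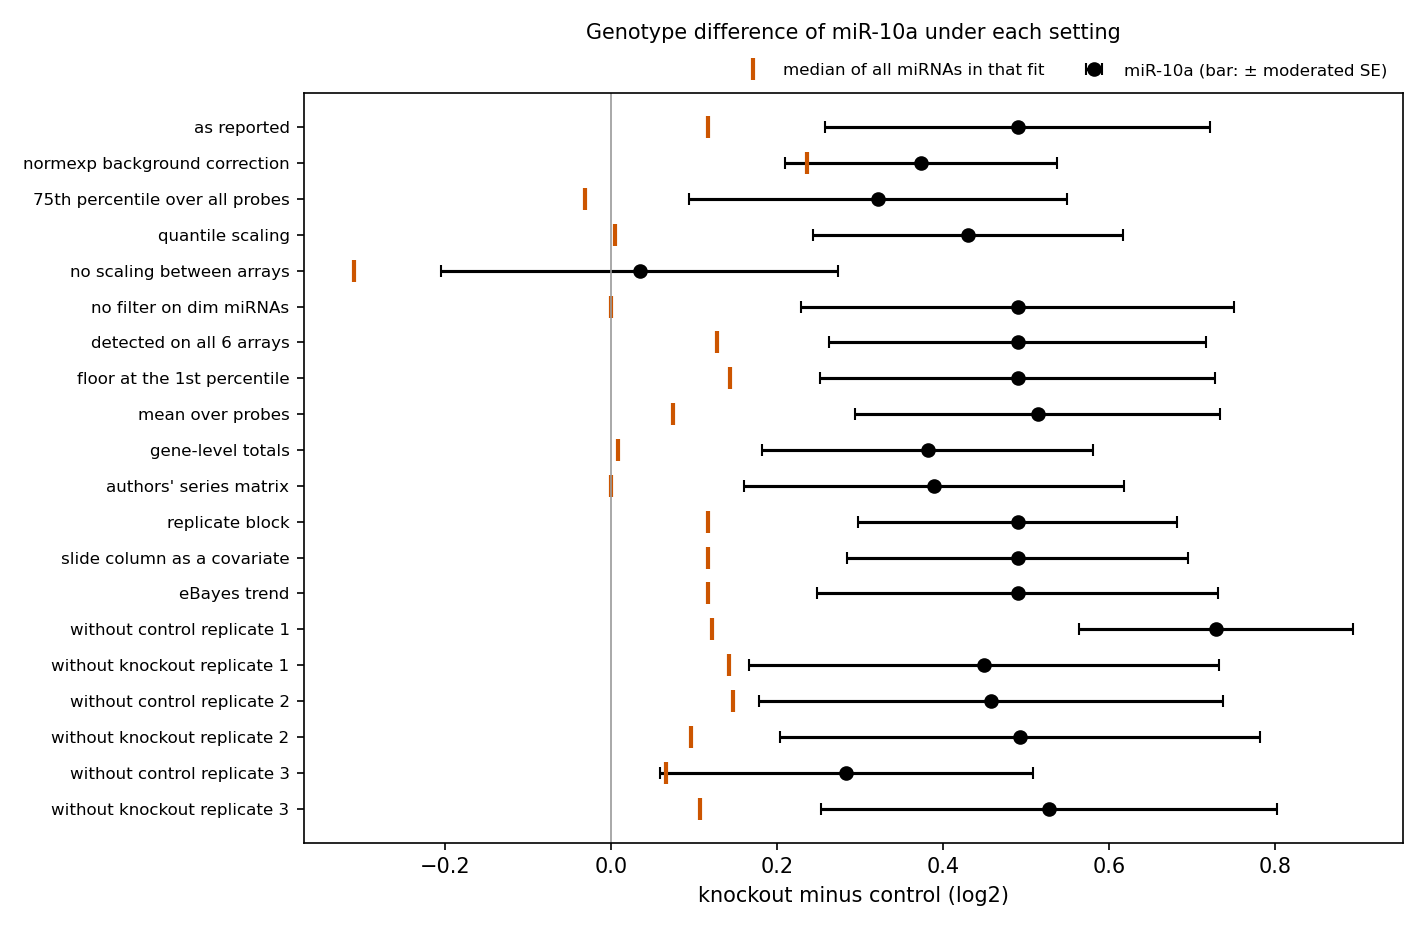
Knockout minus control difference of miR-10a on the log2 scale (points, with moderated SE) and the median of all miRNAs in the same fit (vertical marks) under each setting. miR-10a lies to the right of the median in every fit, and the 2 move left together when arrays are not scaled.

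Both probes of miR-10a had higher scaled means in knockout, but they parted on whether the groups overlapped. The dimmer probe read 40.6, 25.2 and 28.3 units in control and 39.0, 27.6 and 31.9 units in knockout replicates 1, 2 and 3. Before scaling, the arrays came in the same order on both probes, from control replicate 1 as the brightest to control replicate 2 as the dimmest. The dimmer probe differed between genotypes by 0.54 on the scaled log2 scale and the brighter probe by 0.49. Scaled, the dimmer probe stood at -2.825, -3.27 and -3.64 in control and -2.54, -2.76 and -2.821 in knockout replicates 1, 2 and 3. Its groups did not overlap, though knockout replicate 3 lay barely above control replicate 1, whereas those of the brighter probe did. The log2 gap between the probes ran from 1.24 to 1.43 over the arrays, a range of 0.19. Spots of the brighter probe on 1 array had a coefficient of variation of 3.86% to 6.60%, and those of the dimmer probe 6.07% to 13.5%. The probes share their sample and their array, and are not replicates of the condition.

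The relatives of miR-10a in its superfamily, whose genes lie outside the Hox clusters, were partly detected. Of 5 guide strands, miR-99b, miR-125a-5p and miR-125b-5p were on all 6 arrays. By the spot flag miR-99a was on 2 control arrays and on 0 knockout arrays, whereas the software's gene-level call put it on all 3 control arrays and on 1 knockout array. miR-100 was on none by either rule. The 3 tested relatives had lower means in knockout, the opposite direction to miR-10a, and 0 passed. miR-99b, whose gene neighbours those of let-7e and miR-125a, differed by -0.46 (SE 0.26). miR-125a-5p differed by -0.53 (SE 0.30), and miR-125b-5p, a miRNA of progenitor and myeloid cells, by -0.19 (SE 0.18). For miR-125b-5p the sign turned to 0.12 with normexp background correction, in a fit whose median miRNA stood at 0.24. That correction added an offset of 50 units, where the brighter miR-125b-5p probe read 25.5 to 55.4 processed units. The part of the offset in the change of sign was not tested. miR-99b and miR-125a-5p stayed below 0 in all 20 fits, several of which repeat the same difference. The opposition to miR-10a was not itself tested. Control replicate 1 was the highest of all 6 arrays for miR-99b and miR-125a-5p. Without it the differences were -0.18 for miR-99b, -0.17 for miR-125a-5p and -0.29 for miR-125b-5p. Without scaling between arrays they were -0.92, -0.98 and -0.64, and none passed limma's test in these fits (smallest adjusted p = 0.134).

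**Figure D4:**
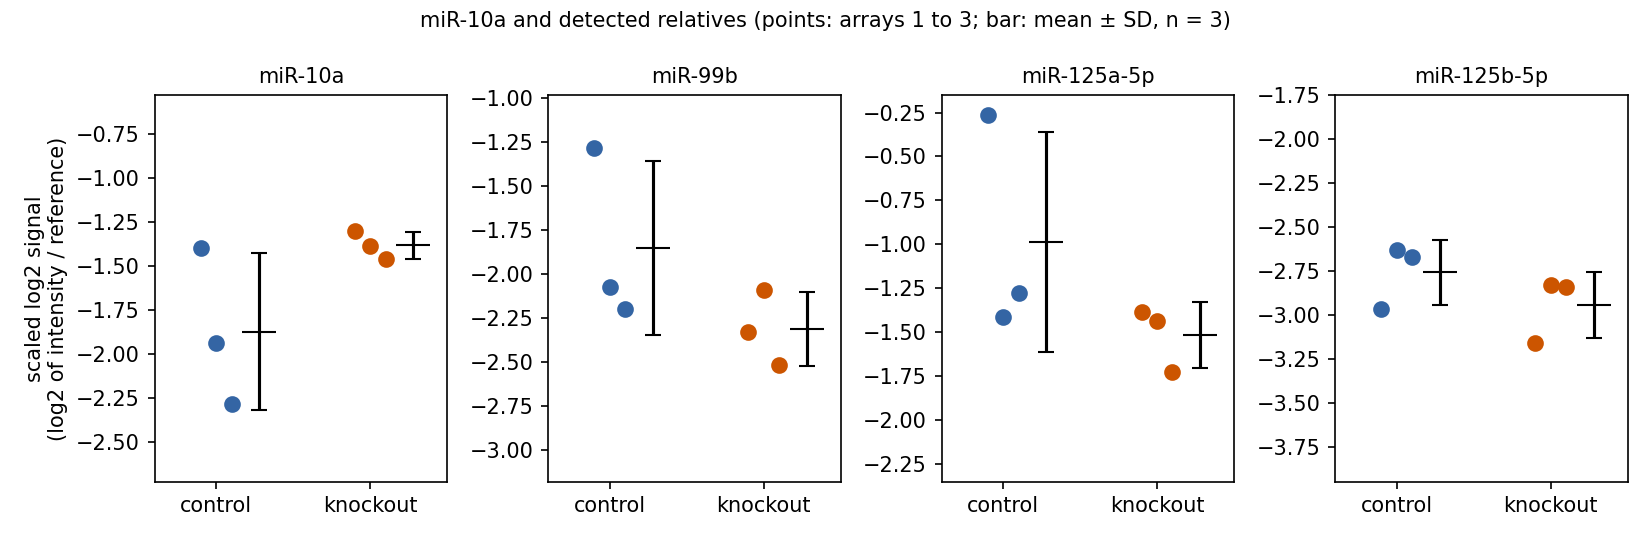
Scaled log2 signal of the brighter probe of miR-10a and of its 3 detected relatives on each array, with mean ± SD (n = 3). Each panel has its own centre and the same span. The knockout mean is above control for miR-10a and below it for the relatives, and the groups overlap in all 4 panels.

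By its pattern over the 6 arrays miR-10a was most like miR-494, miR-361 and let-7b. Pearson's r of scaled log2 signal was 0.96, 0.95 and 0.93, against a median of 0.22 over the 133 other tested miRNAs. These 3 were picked as the highest values over 6 arrays that share 1 slide and 1 scaling, so they are a description. Of them miR-494, from the Dlk1-Dio3 imprinted region, differed between genotypes by 0.47, miR-361 by 0.16 and let-7b by 0.13 on the log2 scale, and 0 passed the test.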

How the data were processed

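Per the file headers, the deposited intensity of each spot had its background subtracted and a spatial trend removed in Feature Extraction 10.5.1.1 (the submitters' processing notes name Agilent Feature Extraction 9.1). They are not normalized between arrays. The deposited gene-level tables hold total intensity per miRNA. How the authors made the log2 values of their deposited matrix is not stated in the labels or headers. Of its columns 0 belonged to no sample.

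The median over unflagged spots was taken for each of 1759 mouse probes, divided by the array's reference, floored at the 5th percentile of detected signals (-4.32 in log2) and log2 transformed. A miRNA took its probe with the highest mean, and 134 miRNAs detected on at least 3 arrays were tested with limma 3.58.1 in R 4.3.3. The procedure was run on simulated data, in which every planted difference was larger than that of miR-10a. It does not say how often a difference of the size seen for miR-10a would be found. Precision is limited by the number of arrays. The named miRNAs were the members, the other Hox miRNAs, the superfamily, detected list members and the 3 most correlated with miR-10a. The let-7 family was taken for sequence comparison, and lists of markers covered myeloid, stromal, endothelial, lymphoid, erythroid or platelet, epithelial, muscle and progenitor cells. Of 5 progenitor miRNAs, miR-125b-5p and miR-99a were detected on any array. Members and lists were chosen with earlier results of these data known. Alternatives covered background correction, scaling, filter, floor, probe rule, the deposited tables, blocks, variance model, detection rule and leaving out each array. Array probe sequences are not used here.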

Additional observations from a re-analysis of the deposited data

How the results depend on the processing

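The miR-10a difference kept its direction and stayed short of the threshold under all 19 alternatives. In several of them its direction could not have changed. The changes of filter, floor, block, slide column and variance trend left the difference itself at 0.49 and moved only its SE or adjusted p. Leaving out each array in turn gave 0.28 to 0.73, and the other 13 alternatives 0.03 to 0.51, with limma adjusted p between 0.216 and 0.958. The count of miRNAs called was 0 under each of them, while the count at an unadjusted p under 0.05 ran from 1 without knockout replicate 2 to 25 with no scaling. With normexp and its offset of 50 units it was 24. The miR-10a difference was then 0.37 (limma adjusted p = 0.216), and only 0.14 above the median miRNA. In that fit limma gave miR-10a, miR-99b, miR-125a-5p and miR-125b-5p the same SE of 0.16, unlike in the fit as reported. The replicate numbers were not taken to pair the samples, since the labels do not say that a number marks a shared animal or day. The correlations of same-numbered arrays' deviations ran from -0.07 to 0.37, and 4 of 6 arrays correlated best with their own number. These values do not settle whether the samples are paired. With the replicate block the difference of miR-10a was 0.49 (SE 0.19, unadjusted p = 0.038, limma adjusted p = 0.481) and 0 miRNAs were called. The arrays on which each member was detected were 6 for miR-10a and 0 for miR-10b, miR-196a and miR-196b under the software's call and with at least 1 spot or every spot required. Signal over background limits what can be said of the 3 undetected members.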
